A study of Homo sapiens with 6 samples.

Results

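Histone genes were taken as the entries of the deposited table whose symbols begin with HIST, a cluster digit and H, or with H1F, H2AF, H2BF or H3F, which gave 94 of its 26485 entries. By their symbols 72 are replication-dependent histone genes, 18 are replacement histone genes, 3 are histone pseudogenes and 1 is an antisense RNA of a histone gene. GENCODE annotates HIST2H2BA and HIST2H2BC, which count among the 72 by symbol, as transcribed pseudogenes. With the CDC42 inhibitor ML141 the linker histone gene H1F0 was 10.3-fold higher and the replacement H2A genes H2AFZ, H2AFY, H2AFV and H2AFX were lower. Among the replication-dependent genes HIST1H2AC and HIST2H2BE were higher and HIST1H2BH was lower. HIST1H2AC had enough counts to be tested only through its ML141 libraries.

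Core histones H2A, H2B, H3 and H4 form the protein spool around which DNA is wound, and linker histone H1 sits where the DNA enters and leaves it. Replication-dependent genes lie in clusters, carry no introns and are transcribed mainly in S phase, and their mRNAs usually end in a short stem-loop in place of a poly(A) tail. Replacement genes lie singly, make polyadenylated mRNA throughout the cell cycle and supply variants such as H1.0, H2A.Z, macroH2A and H3.3, which are known to accumulate in cells that stop dividing or to mark particular chromatin. Some replication-dependent genes are also known to make polyadenylated mRNA, more so in cells that differentiate or leave the cycle.

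REH is an established human line grown from a B-precursor acute lymphoblastic leukemia, and it carries the ETV6-RUNX1 fusion. Unmodified REH cells received 25 µM ML141 or the solvent DMSO, both for 24 h, and each group has 3 libraries from separate experiments. The libraries were made with a kit that selects poly(A)-tailed RNA and keeps no strand information, so the replication-dependent levels given here are those of whatever mRNA passed that selection, and how much was lost was not measured.

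Library totals ran from 8284299 to 12308039 counts, so that 1 count stood for 0.0754 to 0.130 CPM (counts relative to library size, with TMM factors), and 0 counts in a library allow a level of up to 0.226 to 0.389 CPM (3 counts, counting error only). Of 13 markers of precursor B cells 12 exceeded 1 CPM in every library. The exception was VPREB1, at 0 in every library but ML141 replicate 3 (0.0860 CPM). The 13 markers summed to 7547 to 8277 CPM with DMSO and 9436 to 9789 CPM with ML141. Not every marker followed the sum, since CD24 was at 826 to 994 CPM with DMSO and 600 to 701 CPM with ML141. Of 6 T cell markers 5 were at 0 in every library, as were HBB, HBA1 and HBA2 among 5 erythroid markers. The 7 myeloid markers, mostly MPO, summed to 43.8 to 45.5 CPM with DMSO and 29.3 to 31.2 CPM with ML141, and their part in the histone results was not tested.

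Of the 94 histone genes 24 were listed at 0 in all libraries, 21 had 1 to 9 counts in all and 29 had 10 or more counts without passing the low-count filter, which left 20 for the test. By edgeR's quasi-likelihood test with p-values adjusted over the 11454 genes tested (Benjamini-Hochberg), 14 of these 20 were called at an adjusted p of 0.05, beside 54.4% of all genes. They divided into 7 higher with ML141, beside 26.7% of all genes, and 7 lower, beside 27.7%. In 10 of the 20 every library of 1 group lay above every library of the other, beside 61.2% of all genes.

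The 8 tested replacement genes were all called, 4 higher and 4 lower, and in 6 of them the groups did not overlap. Of the 10 tested replication-dependent genes 3 were higher, 2 lower and 5 not called, and in 3 the groups did not overlap. The median log2 fold change was -0.31 over the replacement genes and -0.15 over the replication-dependent genes, against 0.02 over all genes tested. Only genes with enough counts enter these figures. No replacement gene lies near the replacement median, which falls between the 4 lower and the 4 higher genes. That median was -0.13 with library totals as the scaling. It was 0.15 in a fit of the whole table without the low-count filter, where H3F3C, an untested gene of 17 counts, was added. The replication-dependent median rests on single libraries, since it was 0.17 without DMSO replicate 1, 0.12 without DMSO replicate 2 and -0.85 without ML141 replicate 1.

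**Figure D1:**
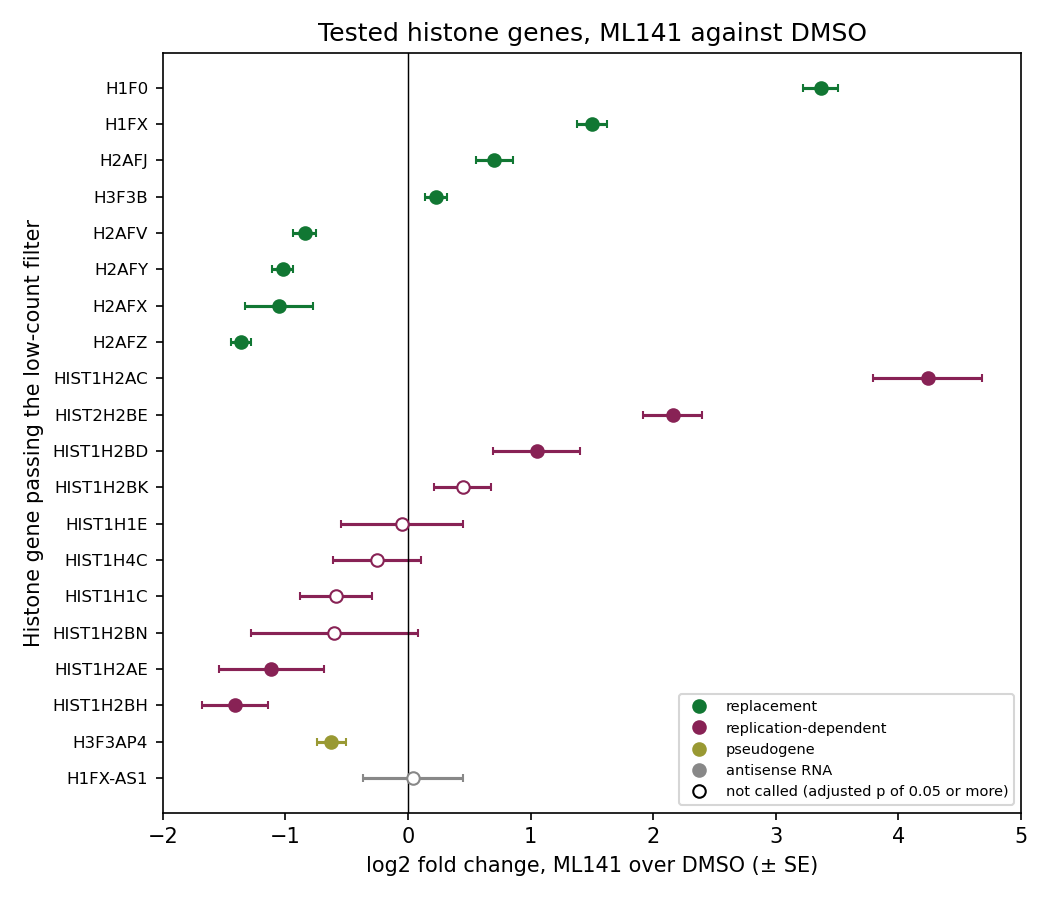
Log2 fold change of each tested histone gene, ML141 over DMSO, with its standard error from the edgeR fit on 3 libraries per group; filled points passed an adjusted p of 0.05 and open points did not. H1F0 lies at 3.37 and HIST1H2AC at 4.24, and the 4 lower replacement genes lie between -1.36 and -0.84.

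H1F0 encodes H1.0, the linker histone long associated with differentiated and resting cells. It was at 81.0, 73.0 and 87.7 CPM in DMSO replicates 1, 2 and 3 and at 929.6, 642.1 and 924.1 CPM in ML141 replicates 1, 2 and 3. Every ML141 library lay far above every DMSO library, and ML141 replicate 2 was the lowest of its group. The log2 fold change was 3.37 (SE 0.144, edgeR adjusted p = 3.09e-08, n = 3 per group), and it ranged from 3.28 to 3.52 when each library was left out. In bulk RNA more RNA per cell cannot be told apart from a larger share of cells that hold it. H1F0 lies on chromosome 22 from 37805093 to 37807436 (hg38, plus strand) with 1 annotated transcript, and no other gene shares its exons.

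H1FX encodes H1.10 (H1x), the other replacement linker histone made in most somatic cells. It was at 61.3, 82.0 and 88.7 CPM with DMSO and at 230.9, 199.7 and 228.8 CPM with ML141, with no overlap between the groups. Its log2 fold change was 1.502 (SE 0.124, edgeR adjusted p = 1.74e-06), a 2.83-fold rise. H1FX lies on chromosome 3 from 129314771 to 129316277, and H1FX-AS1 on the opposite strand covers 22.9% of its exon bases, which unstranded reads cannot tell apart there. H1FX-AS1 itself was at 1.04 to 4.24 CPM with DMSO and 1.95 to 4.37 CPM with ML141, and its log2 fold change was 0.04 (SE 0.409, edgeR adjusted p = 0.942).

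The log2 ratio of H1F0 to H1FX was 0.07 ± 0.29 with DMSO and 1.90 ± 0.19 with ML141 (SD, n = 3), a difference of 1.83. An exact 2-sided permutation test gave p = 0.1, the smallest that 3 against 3 libraries allow, and 0.133 after adjustment over the 4 ratios tested. On the scale of CPM per kilobase of annotated exon, H1FX stood at 51.3 and H1F0 at 34.4 with DMSO. With ML141 H1F0 stood at 355 and H1FX at 146, so on that scale the order was the opposite. In CPM the DMSO means were 80.6 for H1F0 and 77.3 for H1FX, so the opposite order depends on the division by exon length.

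The 6 replication-dependent linker genes with counts were low in every library. HIST1H1C (H1.2) had 48, 46 and 37 counts in the DMSO replicates and 49, 38 and 26 in the ML141 replicates, or 6.22, 4.77 and 3.57 against 4.54, 2.87 and 2.24 CPM. The groups overlapped, and a log2 fold change of -0.58 (SE 0.294) did not pass (edgeR adjusted p = 0.111). Within each replicate number HIST1H1C was lower with ML141, and a fit with the number as a block called it lower, at -0.61 (edgeR adjusted p = 0.0236). HIST1H1E (H1.4) had 50 counts in all with DMSO and 62 with ML141, a log2 fold change of -0.05 (SE 0.498 and adjusted p = 0.937 by edgeR), and its sign was positive under 2 other scalings.

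The log2 ratio of H1F0 to HIST1H1C was 4.03 ± 0.46 with DMSO and 7.97 ± 0.53 with ML141, a difference of 3.94 (exact permutation p = 0.1, adjusted 0.133). Summed over the 8 linker genes with counts, H1 mRNA was at 154, 164 and 183 CPM with DMSO and at 1170.03, 847 and 1156 CPM with ML141, a 6.35-fold difference of the means. H1F0 supplied 44.5% to 52.7% of these linker counts with DMSO and 75.8% to 79.9% with ML141. Replication-dependent linker genes supplied 3.33% to 7.34% with DMSO and 0.312% to 0.808% with ML141, with no overlap in either share. The second share is lower beside a larger H1F0 count in the total: the replication-dependent linker genes themselves summed to 8.79 ± 2.61 CPM with DMSO and 6.11 ± 3.01 CPM with ML141 (SD, n = 3), and the groups overlapped. Such shares depend on transcript length and on poly(A) selection, so only their change between libraries is read.

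**Figure D2:**
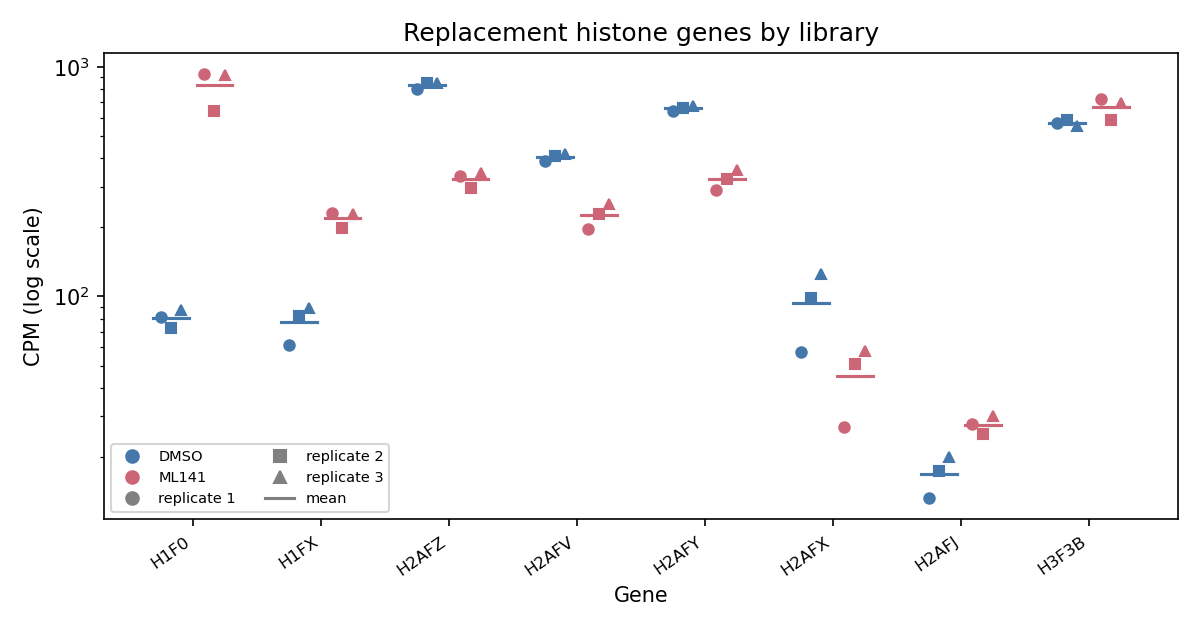
Level of the 8 tested replacement histone genes in each library in CPM (log scale); symbols mark replicates 1, 2 and 3, colours mark DMSO and ML141, and lines mark the means. H1F0 and H1FX are higher in all ML141 libraries, H2AFZ, H2AFV and H2AFY are lower in all, and the groups overlap for H2AFX and H3F3B.

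The replacement H2A genes moved in both directions. H2AFZ encodes H2A.Z.1, a variant found at promoters and enhancers and abundant in dividing cells. It was at 799.8, 849.6 and 855 CPM with DMSO and at 333, 298 and 344 CPM with ML141, a log2 fold change of -1.36 (SE 0.083 and adjusted p = 2.30e-07 by edgeR). H2AFV, the second H2A.Z gene (H2A.Z.2), was at 389, 411 and 416 CPM with DMSO and at 197, 228 and 253 CPM with ML141, a log2 fold change of -0.84 (SE 0.094 and adjusted p = 1.61e-05 by edgeR). The groups did not overlap for either gene.

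The log2 ratio of H2AFZ to H2AFV was 1.04 ± 0.0052 with DMSO and 0.53 ± 0.20 with ML141. It was lower in each ML141 library than in each DMSO library, by 0.51 on average (exact permutation p = 0.1, adjusted 0.133). H2AFZ shares 6.23% of its exon bases with AC097460.1 on the opposite strand, and H2AFV shares none.

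H2AFY encodes macroH2A1, a large H2A variant with a globular macro domain that is enriched on silent chromatin. It was at 641, 659 and 678 CPM with DMSO and at 290.03, 326 and 357 CPM with ML141, with no overlap. This is a log2 fold change of -1.02 (SE 0.088 and adjusted p = 2.33e-06 by edgeR). Of its exon bases 15.97% also belong to AC026691.1 on the opposite strand. H2AFY2, the gene of macroH2A2, was listed at 0 in all 6 libraries, so a ratio between the macroH2A genes could not be formed.

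H2AFX encodes H2A.X, the variant phosphorylated around DNA breaks. It is grouped here by its symbol, although it is known to make both a stem-loop mRNA and a polyadenylated mRNA. It was at 57.6, 98.0 and 125 CPM with DMSO and at 27.0, 50.8 and 57.9 CPM with ML141. Replicate 1 was the lowest library of each group, and ML141 replicate 3 lay just above DMSO replicate 1. The log2 fold change of -1.05 (SE 0.276) passed the test (edgeR adjusted p = 0.00665). The log2 ratio of H2AFX to H2AFZ was -3.23 ± 0.52 with DMSO and -2.91 ± 0.61 with ML141, a difference of 0.31 within the spread of the libraries (exact permutation p = 0.5).

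H2AFJ encodes H2A.J, a variant known to build up in senescent cells. It was at 13.2, 17.4 and 19.96 CPM with DMSO and at 27.7, 25.3 and 30.1 CPM with ML141, without overlap. This is a log2 fold change of 0.70 (SE 0.151 and adjusted p = 0.00196 by edgeR). It was the only tested replacement H2A gene that rose.

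The gene pair for the replacement H3.3 protein, H3F3A and H3F3B, could be followed on 1 side only. H3F3B was at 568, 589 and 554 CPM with DMSO and at 726, 588.9 and 694 CPM with ML141. ML141 replicate 2 lay level with DMSO replicate 2, and the log2 fold change of 0.23 (SE 0.089) passed the threshold narrowly (edgeR adjusted p = 0.0453). That call was lost when any library other than ML141 replicate 2 was left out, with adjusted p up to 0.143, and the authors' deposited table gives an adjusted p of 0.0589.

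H3F3A was listed at 0 in all libraries, while H3F3AP4, a processed pseudogene on chromosome 2 from 174719908 to 174720318, held 1625 counts with DMSO and 1363 with ML141. Every stretch of 50 bases in H3F3AP4 (100%) also occurs in another gene's transcripts, H3F3A among them, so its counts cannot be assigned to the pseudogene. H3F3AP4 was at 67.2, 59.2 and 51.7 CPM with DMSO and at 39.3, 34.8 and 41.0 CPM with ML141. The groups did not overlap, and the log2 fold change was -0.63 (SE 0.117, edgeR adjusted p = 7.71e-04).

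Of the other replacement genes H3F3C (H3.5) had 7 counts with DMSO and 10 with ML141, and H2BFM had 0 and 2. H1FNT, H1FOO, H2AFB1, H2AFB2, H2AFB3 and H2BFWT, variants known mainly from germ cells, were listed at 0. The summed level of all replacement genes was 2612 to 2825 CPM with DMSO and 2358 to 2889 CPM with ML141, so the groups overlapped. H3F3A enters this sum at 0, and the counts listed under H3F3AP4 are left out of it. Without H1F0 the sum was 2531 to 2738 CPM with DMSO and 1716 to 1965 CPM with ML141, a 1.45-fold difference with no overlap.

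A stem-loop of the kind that ends replication-dependent mRNA was looked for in the GENCODE transcripts as a 16-base run with a 6-base stem around a 4-base loop. It was found in 66 of 58721 genes (0.112%), in 33 of the 72 replication-dependent genes and in 1 of the 18 replacement genes, H2AFX. It was present in all 5 called replication-dependent genes and in 1 of the 5 tested but not called. Several models, such as the 642 bases of HIST1H1C and the 381 bases of HIST1H2BK, end too early to include it, so a missing match says only that these letters are not in the annotated transcript. The called genes are printed here, with the loop in capitals.

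HIST1H2AC: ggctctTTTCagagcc
HIST2H2BE: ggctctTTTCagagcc
HIST1H2BD: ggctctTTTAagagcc
HIST1H2BH: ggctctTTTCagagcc
HIST1H2AE: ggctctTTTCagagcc
H2AFX: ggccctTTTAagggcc

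The stem is the same in all 5 replication-dependent genes and differs in H2AFX. Annotated transcripts reach far beyond the stem-loop in HIST1H2AC (1114 and 1128 bases), HIST2H2BE (1729 bases), HIST1H2BH (1640 bases) and H2AFX (821 and 1044 bases). In HIST1H2BD and HIST1H2AE the transcripts that hold the stem-loop stop 39 and 51 bases after it. Both higher and lower genes are among those with long ends.

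HIST1H2AC, an H2A gene of the large cluster on chromosome 6 (26124145 to 26139116), had 9, 4 and 4 counts in DMSO replicates 1, 2 and 3 and 181, 92 and 142 in the ML141 replicates. That is 1.17, 0.415 and 0.386 CPM against 16.8, 6.94 and 12.2 CPM, and the groups lay far apart. The 17 DMSO counts against 415 ML141 counts give a ratio of 19.0 after scaling to library size, with a 95% Clopper-Pearson interval of 11.7 to 32.9. The interval covers counting error only, since the counts of each group's 3 libraries were pooled and the spread between libraries is left out. Whether PCR copies of a molecule were counted as separate reads was not checked. The fitted log2 fold change was 4.24 (SE 0.444, edgeR adjusted p = 1.01e-05).

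HIST2H2BE, an H2B gene of the smaller cluster on chromosome 1 (149884459 to 149886652), had 21, 17 and 15 counts with DMSO and 94, 127 and 89 with ML141. The levels were 2.72, 1.76 and 1.45 CPM against 8.71, 9.58 and 7.65 CPM, with no overlap. Its log2 fold change was 2.16 (SE 0.242, edgeR adjusted p = 1.67e-05), and the ratio of summed counts was 4.55 (3.39 to 6.20).

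HIST1H2BD, an H2B gene on chromosome 6 (26158146 to 26171349), had 21, 18 and 14 counts with DMSO and 63, 33 and 45 with ML141. ML141 replicate 2, at 2.49 CPM, lay below DMSO replicate 1 at 2.72 CPM, so the groups overlapped. The log2 fold change was 1.05 (SE 0.355, edgeR adjusted p = 0.0250). The call held in 2 of the 6 fits that left out a library (without DMSO replicate 1 or ML141 replicate 2), with adjusted p up to 0.115 in the others.

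HIST1H2BH, a further H2B gene of that cluster (26251651 to 26253710), had 22, 44 and 41 counts with DMSO and 17, 20 and 14 with ML141. The levels were 2.85, 4.56 and 3.95 CPM against 1.57, 1.51 and 1.20 CPM, and the groups did not overlap. The log2 fold change was -1.41 (SE 0.269, edgeR adjusted p = 8.63e-04), and the call held without each library. HIST1H2AE, an H2A gene (26216975 to 26217483), had 13, 16 and 10 counts with DMSO and 11, 8 and 4 with ML141, and the groups overlapped. Its log2 fold change of -1.12 (SE 0.426) passed narrowly (edgeR adjusted p = 0.0426) and held in 2 of the 6 fits without a library (without DMSO replicate 3 or ML141 replicate 1), with adjusted p up to 0.151 in the others. The authors' deposited table gives it an adjusted p of 0.127.

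**Figure D3:**
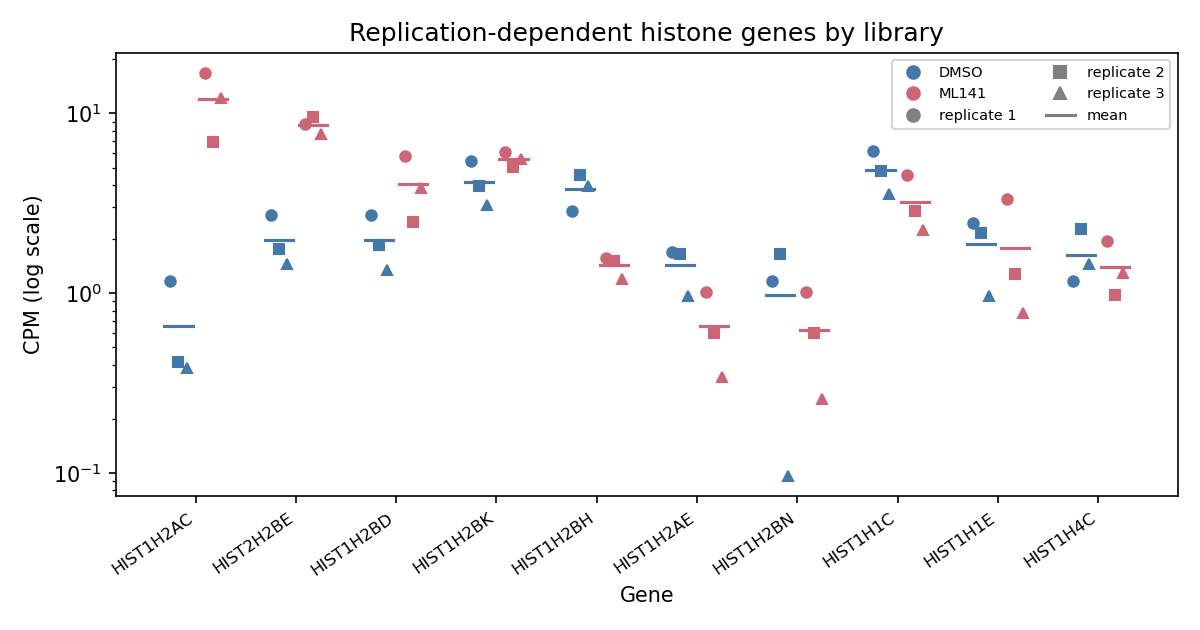
Level of the 10 tested replication-dependent histone genes in each library in CPM (log scale); symbols mark replicates 1, 2 and 3, colours mark DMSO and ML141, and lines mark the means. The groups stand apart for HIST1H2AC, HIST2H2BE and HIST1H2BH and overlap for the other 7.

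The other tested replication-dependent genes did not pass. HIST1H2BK (H2B) had 42, 38 and 32 counts with DMSO and 66, 67 and 65 with ML141, a log2 fold change of 0.44 (SE 0.229 and adjusted p = 0.120 by edgeR), and 74.1% of its 50-base stretches occur in other genes, H2BFS among them. HIST1H2BN (H2B) had 26 and 22 counts in all, a log2 fold change of -0.60 (SE 0.683 and adjusted p = 0.477 by edgeR), and shares 7.18% of its exon bases with HIST1H2AK on the opposite strand. HIST1H4C (H4) had 46 and 49 counts, a log2 fold change of -0.25 (SE 0.360 and adjusted p = 0.571 by edgeR). HIST1H2BK passed with library totals as the scaling and when DMSO replicate 1 was left out.

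Summed by histone type, the replication-dependent genes did not move together. H2A genes summed to 5.45, 5.39 and 5.21 CPM with DMSO and to 21.4, 10.3 and 15.04 CPM with ML141, and H2B genes to 20.7, 18.0 and 13.3 CPM against 27.9, 23.2 and 21.5 CPM, with no overlap in either. The H1 sums, given above, overlapped. H3 genes summed to 2.48 ± 0.484 and 1.84 ± 0.481 CPM and H4 genes to 5.02 ± 1.93 and 3.54 ± 0.520 CPM with DMSO and ML141 (SD, n = 3), and the groups overlapped in both. These sums were given no test.

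The higher H2A and H2B sums rested on HIST1H2AC and HIST2H2BE, a split chosen after their values were seen. Without HIST1H2AC the H2A sum was 4.69 ± 0.366 CPM with DMSO and 3.62 ± 0.919 CPM with ML141. Without HIST2H2BE the H2B sum was 15.4 ± 3.18 and 15.5 ± 3.16 CPM. Both groups then overlapped. These 2 genes held 5.16% to 8.85% of all replication-dependent counts with DMSO and 37.6% to 43.9% with ML141.

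**Figure D4:**
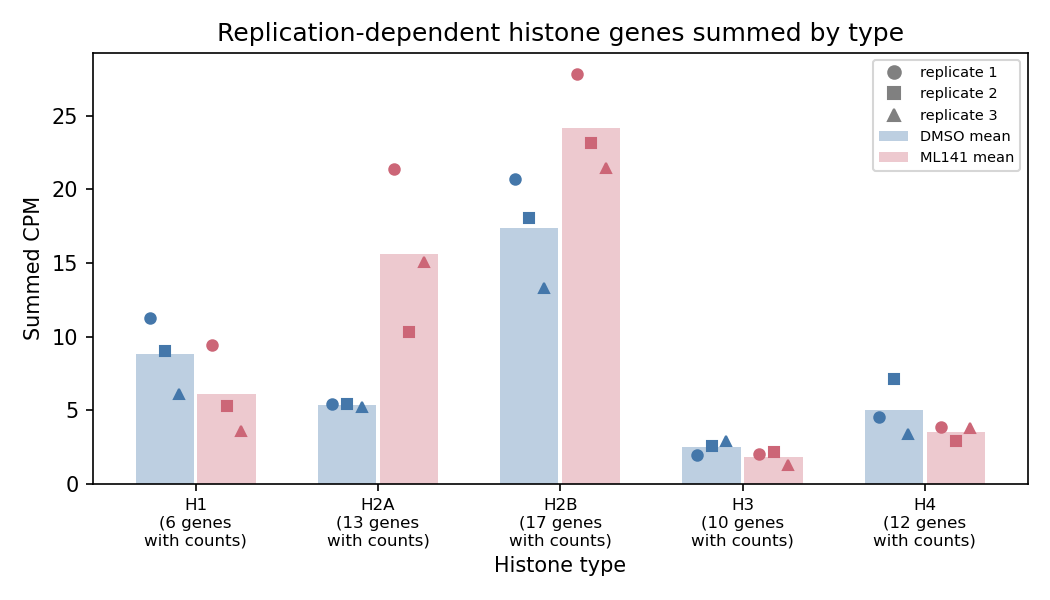
Summed CPM of the replication-dependent genes of each histone type; bars are means of 3 libraries, points are libraries, and symbols mark replicates 1, 2 and 3. The ML141 libraries lie above the DMSO libraries for H2A and H2B and overlap them for H1, H3 and H4.

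All 72 replication-dependent genes together summed to 44.0, 42.2 and 30.9 CPM with DMSO and to 64.7, 43.9 and 45.2 CPM with ML141, and ML141 replicate 2 lay just below DMSO replicate 1. They made up 1.06% to 1.61% of all histone counts with DMSO and 1.52% to 2.25% with ML141. H1F0 alone made up 2.53% to 3.01% of histone counts with DMSO and 26.3% to 32.4% with ML141. The mean replication-dependent share was 0.48 percentage points higher with ML141, and without 5 genes known to be often polyadenylated (HIST2H2BE, HIST1H2AC, HIST1H2BK, HIST1H2BD and HIST1H1C) it was 0.24 points lower (a difference of -0.24).

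Promoters were compared for the 69 histone genes matched to RefSeq (GRCh38.p14, 250 bases before to 50 after the start site). H1F0, H2AFY and HIST1H2BD were among the genes without a match, and their promoters were not searched. The octamer ATTTGCAT, read on both strands, is the known site of OCT1 in H2B promoters and lies in 1.77% of all 35116 promoters of this length. It was found in 11 of 16 replication-dependent H2A promoters and 8 of 11 H2B promoters, in none of the 6 H1, 10 H3 and 13 H4 promoters, and in 1 of 13 replacement promoters, that of H3F3B. Some H2A and H2B genes face each other, so that their promoters overlap and hold the same octamer. Such pairs include HIST1H2AA with HIST1H2BA, HIST1H2AG with HIST1H2BJ, HIST1H2AJ with HIST1H2BM, and HIST1H2AM with HIST1H2BO. The H2A and H2B counts are therefore not independent. The octamer is in capitals in the promoters of the 2 higher genes and the lower gene whose groups stood apart.

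HIST1H2AC, chr6:26123922-26124221, plus strand: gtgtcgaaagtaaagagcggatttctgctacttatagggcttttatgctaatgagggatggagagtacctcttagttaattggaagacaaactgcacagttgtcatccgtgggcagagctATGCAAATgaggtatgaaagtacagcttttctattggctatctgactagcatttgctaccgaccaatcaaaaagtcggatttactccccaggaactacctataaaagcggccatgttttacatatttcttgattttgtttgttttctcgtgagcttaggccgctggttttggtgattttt
HIST2H2BE, chr1:149886633-149886932, minus strand: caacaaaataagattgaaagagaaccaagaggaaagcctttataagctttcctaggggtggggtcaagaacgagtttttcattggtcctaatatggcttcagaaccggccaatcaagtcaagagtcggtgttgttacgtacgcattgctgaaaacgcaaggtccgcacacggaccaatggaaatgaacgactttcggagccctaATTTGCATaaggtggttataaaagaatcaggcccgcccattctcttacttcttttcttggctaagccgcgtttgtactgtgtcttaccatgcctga
HIST1H2BH, chr6:26251364-26251663, plus strand: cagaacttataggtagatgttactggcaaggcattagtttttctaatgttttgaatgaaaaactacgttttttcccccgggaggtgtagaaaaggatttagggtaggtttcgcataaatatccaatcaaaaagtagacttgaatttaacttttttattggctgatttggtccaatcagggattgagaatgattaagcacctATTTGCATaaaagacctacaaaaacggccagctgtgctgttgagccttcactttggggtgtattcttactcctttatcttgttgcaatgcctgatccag

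The octamer begins 130 bases before the start site in HIST1H2AC, where it reads ATGCAAAT on the gene's strand, and 46 and 49 bases before it in HIST2H2BE and HIST1H2BH. It was present in 3 of the 5 matched promoters of higher histone genes, in 2 of the 5 of lower ones and in none of the 3 of tested genes that were not called. Genes with the octamer thus include both higher and lower ones. The box AAACACA, known from H1 promoters, lay in all 6 replication-dependent H1 promoters and in 5.64% of all promoters. It also lay in 2 of 10 replication-dependent H3 promoters, 1 of 16 H2A promoters and 1 of 13 replacement promoters. None of the 11 H2B and 13 H4 promoters held it. TATAAA lay in 37 of 56 replication-dependent and 4 of 13 replacement promoters (11.5% of all), and CCAAT in 46 and 11 of them (34.6% of all). A match is a description of the letters and not a measured site.

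A further 29 histone genes had 10 to 63 counts in all and were not tested. Their groups overlapped in 22, stood higher with ML141 in 3 (HIST1H2BG, HIST1H3E and HIST4H4) and lower in 4 (HIST1H1B, HIST1H2AM, HIST1H3A and HIST1H4I). The counting interval of the ratio lay below 1 in 5 genes and above 1 in 0. These counts were not made for all 1848 genes of the table with 10 or more counts that were not tested. They are therefore a description and not a result about histone genes. HIST1H1B (H1.5), the linker gene tied most closely to dividing cells, had 33 counts with DMSO and 16 with ML141, a ratio of 0.377 (0.194 to 0.704). HIST1H3A had 14 and 2, a ratio of 0.111 (0.0122 to 0.483). The other 3 were HIST1H2AM with 26 and 16 counts, HIST1H4A with 23 and 11, and HIST1H4E with 23 and 12.

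In the remaining H1, H3 and H4 genes of that kind, summed counts with DMSO and ML141 were 16 and 22 for HIST1H1D, 11 and 8 for HIST1H3C, 8 and 18 for HIST1H3E, 9 and 5 for HIST1H3F, 10 and 11 for HIST1H3H, 4 and 7 for HIST1H3I, 17 and 22 for HIST1H4H, 10 and 4 for HIST1H4I and 5 and 15 for HIST4H4. In H2A genes they were 21 and 42 for HIST1H2AG, 12 and 7 for HIST1H2AI, 6 and 4 for HIST1H2AJ, 1 and 9 for HIST1H2AK and 8 and 21 for HIST2H2AC. In H2B genes they were 14 and 9 for HIST1H2BC, 20 and 13 for HIST1H2BF, 15 and 36 for HIST1H2BG, 15 and 16 for HIST1H2BJ, 6 and 9 for HIST1H2BL, 8 and 7 for HIST1H2BM, 5 and 11 for HIST1H2BO, 10 and 14 for HIST2H2BC and 17 and 13 for HIST2H2BF. The counting interval of the ratio included 1 in each of these genes, narrowly in HIST1H2BG (0.996 to 3.67). At these low counts that does not show that a level was unchanged.

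Of the 24 histone genes listed at 0, 9 share over 90% of their 50-base stretches with other genes, among them the twin genes HIST2H2AA3 and HIST2H2AA4, HIST2H3A and HIST2H3C, and HIST2H4A and HIST2H4B. Reads from such copies may have been left uncounted, so a 0 there is no measure of expression. H3F3A shares only 11.7% and was at 0 as well.

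The genes that make, process or place histones were described with 2 lists. Both were chosen with earlier results of these data known, so their shares beside those of all genes are a description. A list of 25 tested genes of histone mRNA transcription, 3′ end formation and decay held 1 higher (4.0%, beside 26.7% of all genes), 13 lower (52%, beside 27.7%) and 11 not called, with a median log2 fold change of -0.24 against 0.02 for all genes. SLBP, which binds the histone stem-loop, was at 219.8, 211 and 226 CPM with DMSO and at 65.4, 77.2 and 75.4 CPM with ML141, a log2 fold change of -1.59 (SE 0.088 and adjusted p = 1.21e-07 by edgeR). CASP8AP2 (FLASH), which recruits the cleavage factors, had -1.05, ERI1, an exonuclease that trims and degrades histone mRNA, -0.80, and YBX1, a broad RNA-binding protein, -0.99. The higher gene was MIIP, with 1.11. It is known as an inhibitor of cell migration and invasion, and whether it belongs in a histone mRNA list was not checked. NPAT, the coactivator of replication-dependent transcription, was at 85.2 to 106 CPM with DMSO and 44.6 to 58.7 CPM with ML141, a log2 fold change of -0.93 (edgeR adjusted p = 4.91e-05), and is named here after its value was seen.

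Among 41 tested genes for histone chaperones and deposition factors 2 were higher (4.88%, beside 26.7% of all genes), 29 lower (70.7%, beside 27.7%) and 10 not called, with a median log2 fold change of -0.66 against 0.02 for all genes. By p-value the 4 foremost lower genes were SUPT16H of the FACT complex with -1.25, NASP, which holds H3 and H4 and binds H1, with -1.42, CHAF1A, the large subunit of the CAF-1 complex that loads new H3 and H4 at forks, with -1.78, and RBBP7, a partner of HAT1 and CAF-1, with -1.04. CHAF1A was at 188, 194 and 197 CPM with DMSO and 43.0, 63.3 and 62.3 CPM with ML141, without overlap. The higher genes UBN2, a partner of the H3.3 chaperone HIRA, and SUPT6H had small log2 fold changes of 0.27 and 0.21, and neither call held without each library in turn. The count of higher genes was 0 without any 1 of the DMSO replicates, and 4 with library totals as the scaling.

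**Figure D5:**
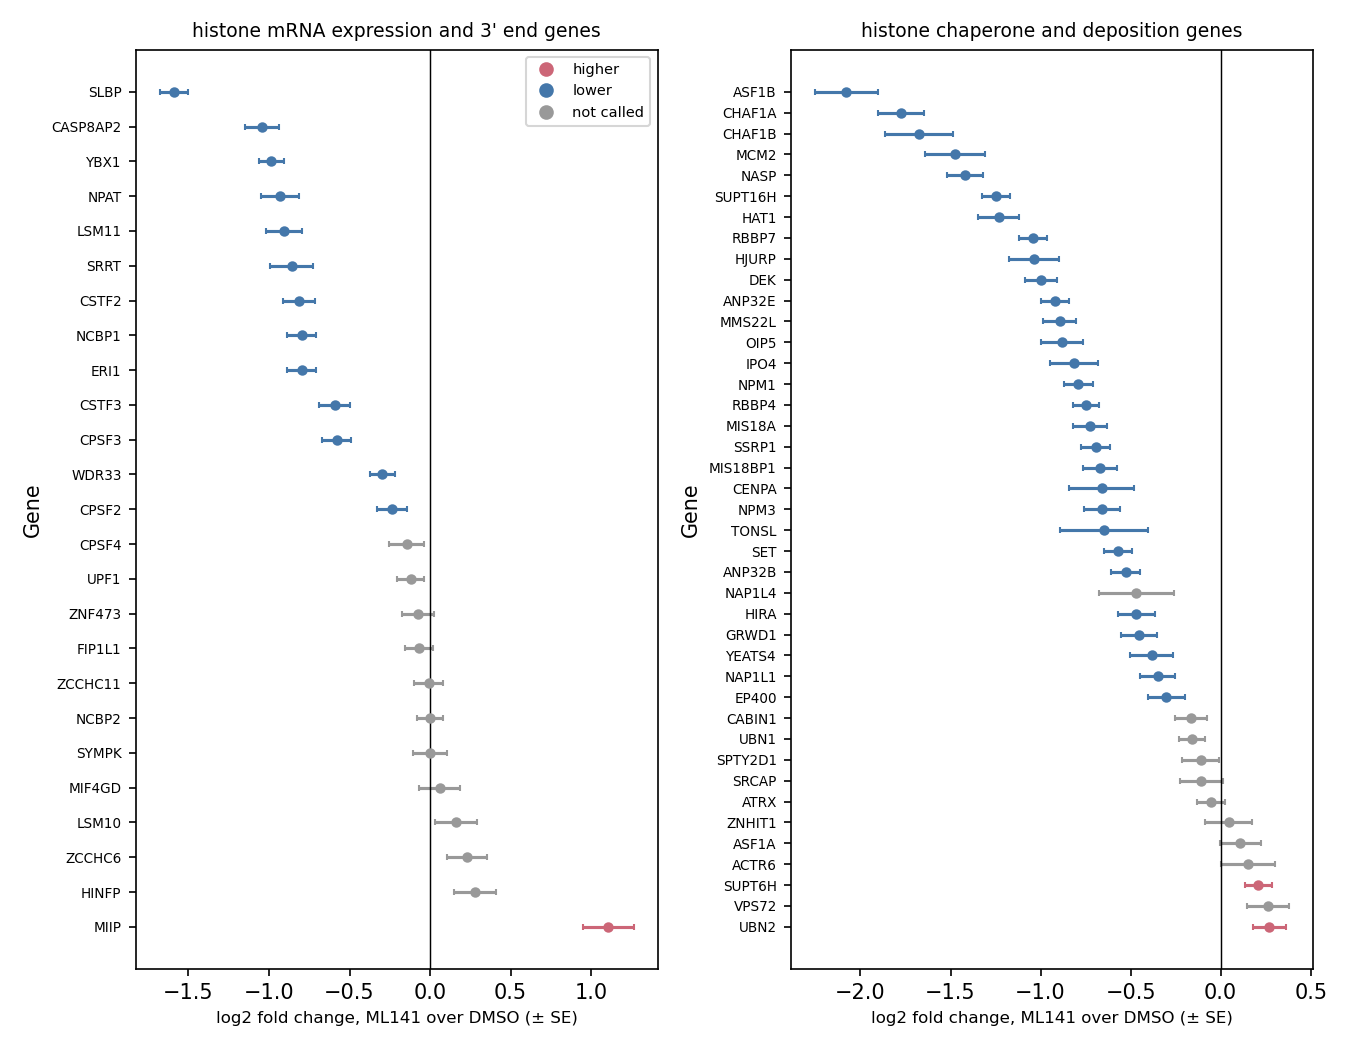
Log2 fold changes, ML141 over DMSO, with standard errors for the tested genes of both lists, by edgeR on 3 libraries per group; colours mark genes higher, lower or not called at an adjusted p of 0.05. SLBP at -1.59 and CHAF1A at -1.78 are among the lowest points, and MIIP at 1.11 is the highest.

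Genes whose level followed that of H1F0 were sought among the 7372 other genes averaging 20 CPM or more, by Pearson's r of log2 CPM over the 6 libraries. The nearest were GAB2, ERGIC3, COPG1, MTMR14 and TRIM66, with r from 0.998 to 0.999. Since the libraries fall into the treated and untreated groups, r is mainly a measure of how alike the groups differ, and it is a description. TRIM66 was closest in size, at 4.54, 4.46 and 4.92 CPM with DMSO and 55.8, 47.4 and 54.8 CPM with ML141, a log2 fold change of 3.50 against 3.37 for H1F0. TRIM66 met the limit of 20 CPM only through its ML141 libraries, so this likeness is not a separate result. GAB2, a signalling adaptor, had a log2 fold change of 1.34, and ERGIC3 and COPG1 of the early secretory pathway had 0.60 and 0.53.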

How the data were processed

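RNA of 3 DMSO and 3 ML141 libraries of REH cells was analysed. The authors deposited unnormalized whole-number counts for each gene symbol. The submitters' processing notes name build hg38 and the tools featureCounts, Bowtie2, Trimmomatic, Picard, DESeq2 and bcl2fastq 2.19. Which annotation, settings and strand option they ran is not given in the sources used here. The deposited table also holds scores (counts divided by a size factor and rounded, means, dispersions) and a fold change ratio, which were not used, and the authors' log2 fold change and p-value, used only where named.

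Counts were filtered with filterByExpr at its defaults (minimum count 10, minimum total 15), scaled by TMM and tested with edgeR 4.0.16 in R 4.3.3 (glmQLFit, glmQLFTest, 2-sided, group as the only term) on the whole table, with Benjamini-Hochberg adjustment and a threshold of 0.05. The standard error is the log2 fold change over the square root of F. Levels are CPM on TMM-scaled library sizes, and ratios between genes used a prior count of 2. Positions, exon overlap, shared 50-base stretches and stem-loops come from GENCODE release 29 on GRCh38, which is the same build as hg38, with overlap counted on its basic annotation. Promoters come from RefSeq.

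Groups and replicate numbers follow the sample titles. Replicates differed by more than sampling noise, with a chi-square per degree of freedom of 3.02 to 19.5 within groups, so none was merged. Same-numbered libraries of both groups carry the same tag in the labels, which points to a shared experiment without stating it, and their deviations from the group means correlated at 0.374, 0.0847 and 0.178 for numbers 1, 2 and 3. Every tested histone gene is named with values, untested genes with 10 or more counts by their sums, and of the other lists up to 4 called genes per direction with the smallest p. The histone genes and both lists were chosen with earlier results of these data known. The tests were tested on simulated data. Alternatives were other scalings (DESeq2 size factors, upper-quartile factors, library totals), no or a stricter filter (at least 1 CPM in 3 libraries and a mean of 10 counts in each group), the DESeq2 1.42.0 Wald test, limma-voom (limma 3.58.1), a minimum fold change of 1.5, a replicate block, leaving out each library, and for ratios a prior count of 0.5.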

Additional observations from a re-analysis of the deposited data

How the results depend on the processing

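The 4 higher and 4 lower replacement genes were called under every other scaling, filter and test tried, except that a minimum fold change of 1.5 left 2 higher (H1F0 and H1FX) and 3 lower (without H2AFX), and that 3 to 4 were higher without single libraries. The 2 lower replication-dependent genes became 1 with upper-quartile factors, library totals, the stricter filter, the DESeq2 Wald test or a minimum fold change of 1.5, became 5 with no filter (adding HIST1H1A, HIST1H1B and HIST1H3A), and were 1 to 4 when a library was left out. HIST1H2AC, with 17 counts over the DMSO libraries, does not reach the mean of 10 counts in each group that the stricter filter asks for. With a minimum fold change of 1.5, 813 genes of the whole table were higher and 998 lower, the 3′ end list held 8 lower, and the chaperone list 0 higher and 15 lower. The 3′ end list held 3 higher genes with upper-quartile factors and 4 with library totals, and the chaperone list 4 with library totals and 0 to 3 when a library was left out. TMM factors gave 49.1% of called genes as higher. Upper-quartile factors called 6454 genes, 59.5% of them higher, and shifted the median of all genes by 0.10, and library totals called 6796, 66.1% higher, with a shift of 0.17. No called histone gene changed sign under these scalings.

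The replication-dependent median was 0.017 with library totals and -0.85 to 0.17 when a library was left out. The replacement median was -0.20 with upper-quartile factors and -0.13 with library totals. It was 0.15 in a fit without the low-count filter, where H3F3C, with 17 counts, was added. The difference in the replication-dependent share was -0.24 points without 5 often polyadenylated genes, -0.16 without HIST1H2AC and HIST2H2BE (an alternative chosen after seeing the data) and 0.28 to 0.65 when a library was left out. Among genes not called, H1FX-AS1 was at -0.31 without DMSO replicate 1 and -0.37 without ML141 replicate 2, in a range of -0.37 to 0.44 over the libraries left out. HIST1H1E was at 0.044 with upper-quartile factors, 0.12 with library totals, 0.17 without DMSO replicate 1, 0.099 without DMSO replicate 2, 0.15 without ML141 replicate 2 and 0.30 without ML141 replicate 3, in a range of -0.80 to 0.30. Without DMSO replicate 2 HIST1H2BN was at 0.12 (range -1.20 to 0.12) and HIST1H4C at 0.063 (range -0.55 to 0.063). The cause of these moves was not tested.

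Not every library correlated best with its own replicate number: DMSO replicate 3 did so with ML141 replicate 2, at 0.291. With the number as a replicate block 6979 genes were called in place of 6230, and among tested histone genes HIST1H1C was also called (log2 fold change -0.61, edgeR adjusted p = 0.0236) while the other calls stood. Of the 72 replication-dependent genes 62 did not pass the filter on low counts.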
